A study of Homo sapiens with 4 samples.

Results

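The genes described here encode the translation initiation factors (eIFs) and elongation factors (eEFs) of the cytosol, the proteins that load messenger RNA and tRNA onto the ribosome and move the ribosome along. They were taken by symbol: protein-coding rows whose symbol starts with EIF and a number from 1 to 6, or with EEF, leaving out the eIF2 kinases (EIF2AK) and the eIF4E-binding proteins (EIF4EBP), which regulate the factors. This gave 57 of the 40205 genes listed, of which 56 had enough reads to be tested and *EIF4E1B*, an eIF4E relative, was listed at 0 in all 4 libraries. The study silenced circZFR, a circular RNA made from exons of *ZFR*, in lung adenocarcinoma (LUAD) cells and sequenced total RNA 24 h after transfection. There were 2 libraries of cells given a negative control siRNA (NC 1 and NC 2) and 2 of cells given the circZFR siRNA (si-circZFR 1 and si-circZFR 2), and no other treatment is named. No label tells whether the 2 libraries of a group came from separate cultures, so p-values measure only the spread between these libraries, which may be technical.

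Initiation starts when eIF2 carries the initiator tRNA to the small ribosomal subunit, with eIF3 as the scaffold and eIF1 and eIF1A holding the subunit ready to scan. The eIF4 proteins bring the capped mRNA, eIF5 and eIF5B complete the assembly, and eIF6 keeps free large subunits apart from small ones. In elongation, eEF1A delivers each aminoacyl-tRNA, the eEF1B proteins recharge eEF1A with GTP, and eEF2 moves the ribosome by a codon, helped at difficult sequences by eIF5A. Many mRNAs of this machinery are TOP mRNAs (terminal oligopyrimidine): they begin with a C and a run of pyrimidines, and LARP1 and mTOR signalling regulate their translation and stability. Rapidly growing tumour cells depend on these factors, and in LUAD several of them are studied as growth drivers.

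The start of the transcript is shown for 9 factors that the results below turn on, because the pyrimidine run is the feature the TOP class is defined by. Each line holds 10 bases before and 20 bases from the RefSeq start site (GRCh38.p14), and capitals mark a run of C and T that begins with C at the first transcribed base and holds at least 4 more pyrimidines.
EEF1A1, chr6:73521013-73521042, minus strand: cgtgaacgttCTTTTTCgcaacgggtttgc
EEF1B2, chr2:206159885-206159914, plus strand: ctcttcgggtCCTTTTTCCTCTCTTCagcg
EEF2, chr19:3985444-3985473, minus strand: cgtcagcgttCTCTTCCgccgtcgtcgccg
EIF3D, chr22:36529147-36529176, minus strand: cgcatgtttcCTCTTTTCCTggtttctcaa
EIF3F, chr11:7987327-7987356, plus strand: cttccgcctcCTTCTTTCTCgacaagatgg
EIF3K, chr19:38619178-38619207, plus strand: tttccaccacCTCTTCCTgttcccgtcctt
EIF4B, chr12:53006446-53006475, plus strand: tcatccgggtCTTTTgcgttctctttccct
EEF1G, chr11:62573872-62573901, minus strand: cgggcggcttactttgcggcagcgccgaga
EIF3I, chr1:32222397-32222426, plus strand: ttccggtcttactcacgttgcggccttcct
*EEF1B2* and a few other factors have further RefSeq starts without the run. A start was found for 48 of the 57 factors, and 12 of them (25.0%) held the run, against 5.14% of the 27305 genes with a RefSeq start. The others with the run were *EIF2A*, *EIF2D*, *EIF2S3*, *EIF3M* and *EIF4A2*. No start was matched for *EIF3H*, *EEF1A2*, *EIF3E*, *EIF2S2*, *EIF3G*, *EIF3L*, *EIF3A*, *EEF1D* and *EIF3CL*.

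Some factors have copies that share most of their coding sequence, and reads from one copy can be counted on the other. *EIF5A* (chr17:7306999-7312463, plus strand) and *EIF5AL1* (chr10:79512533-79516440, plus strand) differed at 5 of 465 coding bases. *EEF1A1* (chr6:73489308-73525587, minus strand) and the pseudogene *EEF1A1P5* differed at 4 of 1389. The stretches below, numbered from the A of the start codon, show how little tells the copies apart, with the differing bases in capitals.
EIF5A, bases 99 to 128: caaaggcCggccatgtaagatcgtCgagat
EIF5AL1, bases 99 to 128: caaaggcTggccatgtaagatcgtGgagat
EEF1A1, bases 270 to 299: tgatgccccaggacacagagacttTatcaa
EEF1A1P5, bases 270 to 299: tgatgccccaggacacagagacttCatcaa
The differences are C106T and C123G in *EIF5AL1* and T294C in *EEF1A1P5*, with the factor's base first. Of the 57 factors, 19 shared at least 1 stretch of 100 transcript bases with another annotated gene.

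Each library held 11040050 to 12816868 reads. The sources name different cell lines, A549 in the study's text and H1299 in the sample labels. *CDKN2A*, which A549 cells lack, was at 0 in all 4 libraries. Its neighbour *MTAP*, lost with it in A549, had 106 and 73 reads in NC and 168 and 171 in si-circZFR. Its log2 fold change of si-circZFR against NC was 0.61 (SE 0.18, limma FDR 0.123). Levels are given in RPKM, reads per kilobase of gene and per 1000000 reads of the library, scaled between libraries except where named as deposited. *ALDH1A1* and *AKR1B10*, highly expressed in A549, lay between 752 and 1700 RPKM, and the epithelial keratins *KRT8* and *KRT18* were high. The epithelial gene *EPCAM* was low and higher after silencing, at 0.397 and 0.407 in NC against 1.82 and 2.65 in si-circZFR, on 4 to 28 reads (log2 fold change of si-circZFR against NC, log2FC, 1.19, SE 0.17, limma FDR 0.0444, and 0.0689 in limma-voom). Of 3 markers of other cell types, *PTPRC* of leukocytes was at 0, *PECAM1* of endothelium had 0 to 2 reads and the fibroblast collagen *COL1A1* 42 to 137 reads. Their summed level was 0.877 and 0.633 in NC and 1.33 and 1.90 in si-circZFR, nearly all *COL1A1* (log2FC 0.57, SE 0.17, limma FDR 0.127), and its part in the factors' values was not tested. *ZFR* itself had scaled RPKM values of 26.0 and 32.3 with the control siRNA and of 5.22 and 4.60 after silencing (log2FC -2.34, SE 0.18, limma FDR 0.0121). The study's RT-PCR detected no effect of its siRNA on *ZFR* expression in A549 and HCC827 cells. Here the *ZFR* row, 4715 bases long, had 1437 and 1740 reads in NC and 284 and 267 in si-circZFR. These gene-level values do not separate circular from linear *ZFR* transcripts. Whether linear *ZFR* fell, and its part in the factors' values, was not tested.

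NC 2 stood apart from NC 1 for the factors themselves. Across the 56 tested, the median difference NC 2 minus NC 1 was 0.26 on the log2 scale, with 46 factors higher in NC 2, against a median of 0.01 over all genes. The same median was -0.05 for si-circZFR 2 minus si-circZFR 1. Against NC 1 the factors' median was -0.13 in si-circZFR 1 and -0.14 in si-circZFR 2, and against NC 2 it was -0.39 and -0.36. The median was thus below 0 against either control library and further below it against NC 2. Without NC 2, the log2FC of 36 of the 56 factors moved by more than 1.5 times: 20 came nearer to 0, 13 changed sign and 3 went further from 0. Without NC 1 it was 31, of which 26 went further from 0.

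No translation factor passed the test. The main test was limma, fitted to scaled RPKM as log2(value + 1) and adjusted by Benjamini-Hochberg over the 14804 genes tested. In it, 201 genes passed FDR under 0.05 (1.36% of those tested) and 179 passed with a log2FC beyond 1 in either direction (1.21%), none of them a factor. By unadjusted p under 0.05 there were 7 factors, all with lower values in si-circZFR, namely *EIF5AL1*, *EEF1B2*, *EIF3I*, *EIF3D*, *EEF1E1*, *EIF3H* and *EEF1G* (by that rule 11.9% of all genes were lower and 10.6% higher). In limma-voom on the recovered reads, *EIF5AL1*, *EEF1B2* and *EIF3I* passed FDR under 0.05, among 3.20% of all genes. The same 3 passed when limma was fitted to protein-coding genes only, among 4.18%. Without NC 1, 10 factors passed, all lower, among 14.1% of all genes (*EEF1A1*, *EEF1B2*, *EEF1G*, *EIF3E*, *EIF3I*, *EIF3K*, *EIF3L*, *EIF5A*, *EIF5AL1* and *EIF6*). Without NC 2 no gene of any kind did, with 4 factors at an unadjusted p under 0.05, all lower.

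The values of the factors lay mostly on the lower side in si-circZFR. Of the 56, 48 had a log2FC below 0, against 49.6% of all genes, and the median was -0.25 against 0.00 over all genes. Both si-circZFR libraries lay below both NC libraries for 31 factors (28.1% of all genes) and above both for 2, *EIF1AD* and *EIF3A* (27.8%). Without NC 2, 37 factors had a log2FC below 0 and the median was -0.16. With RPKM as deposited, not scaled between libraries, the median over all genes moved to 0.15 and that of the factors to -0.06: 33 factors had a log2FC below 0 (33.8% of all genes), 46 were below the median of all genes, 17 lay apart on the lower side (17.5% of all genes) and 8 on the higher side (40.3%). By group, the medians with RPKM as deposited were -0.46 for eEF1, -0.23 for eIF3, -0.19 for eIF5 to eIF6, -0.06 for eIF1 and for eIF2 with eIF2B, and 0.09 for eIF4. Of all reads, the rows of the factors took 1.29% in NC 1 and 1.51% in NC 2, against 1.22% and 1.26% after silencing. In bulk RNA, fewer cells of a type and less RNA per cell cannot be told apart.

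**Figure D1:**
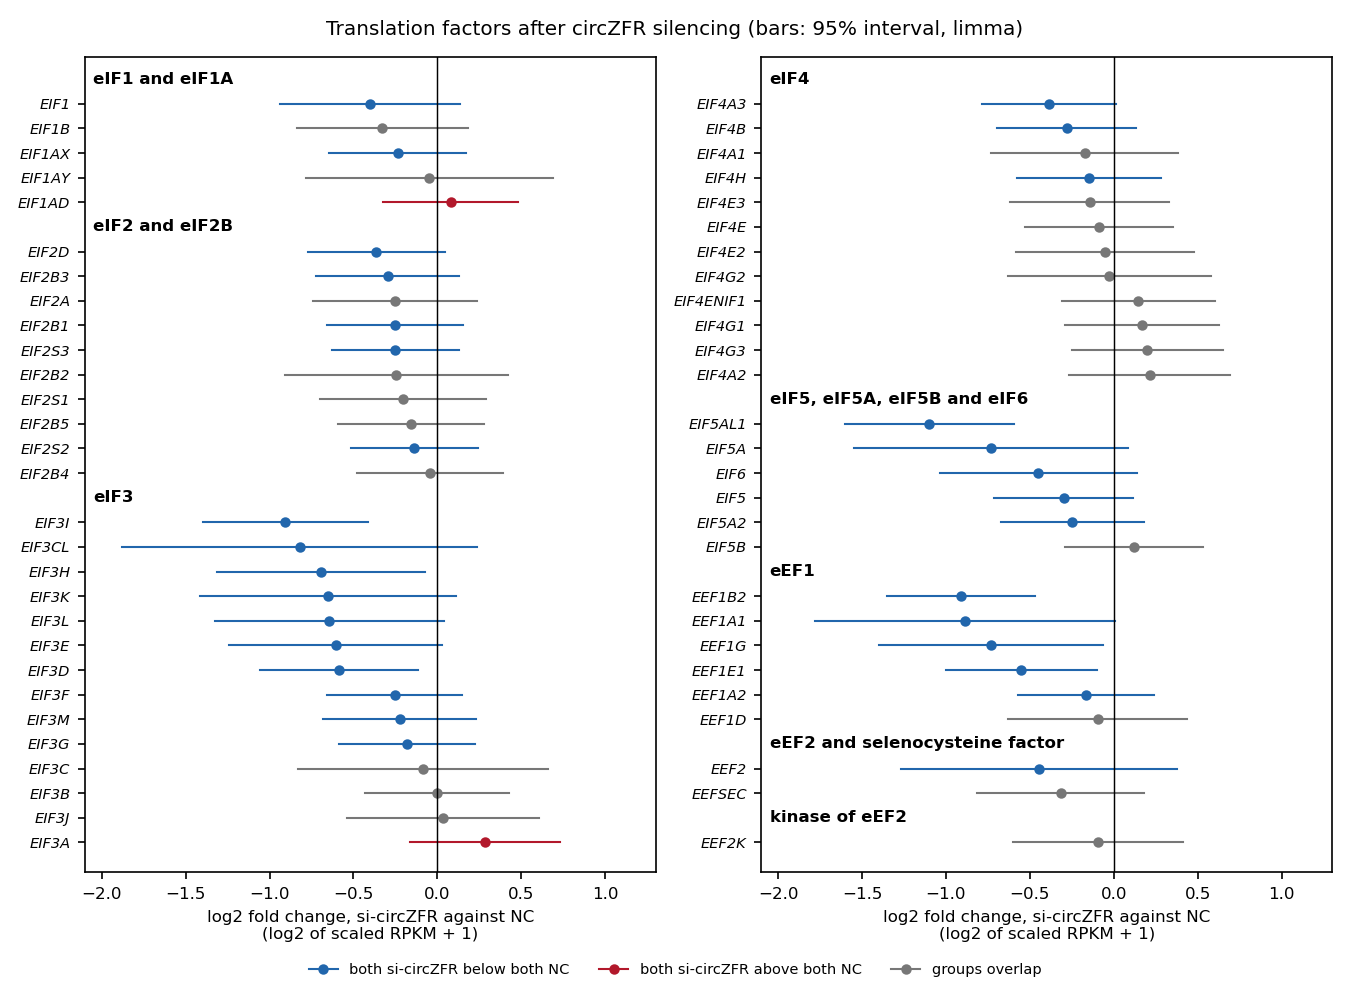
Log2 fold change of the 56 tested translation factors, si-circZFR against NC, by role; points are limma estimates on log2(scaled RPKM + 1) and bars their 95% intervals. The eEF1, eIF3 and eIF5A genes reach furthest to the left, the eIF4 genes sit around 0, and blue marks the 31 factors whose libraries lay apart on the lower side.

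Among the elongation factors, *EEF1B2*, the exchange factor that reloads eEF1A with GTP, stood at 131 and 150 scaled RPKM in NC and 72.6 and 75.5 in si-circZFR. The 2 groups were well apart and the libraries within each were close, with a log2FC of -0.91 (SE 0.19, limma FDR 0.0639). Without NC 2 the value was -0.82, and after a correction for gene length it was -0.69. *EEF1G*, which anchors the exchange complex, was at 319 and 474 against 251 and 218 scaled RPKM (log2FC -0.73, SE 0.28, limma FDR 0.191). Here the NC libraries differed from each other by more than NC 1 differed from si-circZFR 1, and without NC 2 the log2FC was -0.45.

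*EEF1A1*, which encodes the main carrier of aminoacyl-tRNA, was at 267 and 581 scaled RPKM in NC and at 208 and 218 in si-circZFR. The group difference (log2FC -0.89, SE 0.38, limma FDR 0.225) rested mostly on NC 2, which was 1.12 above NC 1 on the log2 scale, and without NC 2 it was -0.33. Its tissue-restricted paralog *EEF1A2*, active in muscle and neurons and in some tumours, was at 75.2 and 80.0 against 68.0 and 70.2 (log2FC -0.16, SE 0.17, limma FDR 0.601). The ratio of *EEF1A1* to *EEF1A2* was 3.56 and 7.26 in NC and 3.06 and 3.10 in si-circZFR.

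*EEF1E1*, a scaffold of the multi-synthetase complex rather than an exchange factor, was low, at 7.62 and 9.20 against 5.85 and 4.97 scaled RPKM (log2FC -0.55, SE 0.19, limma FDR 0.158). It rested on 39 to 67 reads per library, and after the length correction its log2FC was -0.13. *EEF1D*, the other nucleotide exchange subunit, overlapped between groups, at 105 and 130 against 95.6 and 124 scaled RPKM (log2FC -0.10, SE 0.22). *EEF2*, the translocase, was the most abundant factor per length, with 922 and 1139 scaled RPKM in NC and 842 and 673 in si-circZFR. Its libraries lay apart by less than their spread (log2FC -0.44, SE 0.35, limma FDR 0.481). *EEFSEC*, which delivers selenocysteine tRNA, was at 12.3 and 15.0 against 12.6 and 9.09 and overlapped (log2FC -0.32, SE 0.21, and -0.19 without NC 2). *EEF2K*, the kinase that switches eEF2 off, was at 5.95 and 4.07 against 4.36 and 4.77 scaled RPKM (log2FC -0.10, SE 0.21). It was lower in NC 2 than in NC 1, unlike most of the factors.

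*EIF5AL1*, an intact coding copy of *EIF5A*, had the lowest log2FC and the smallest p of the factors. Its row held 45.0 and 63.2 scaled RPKM in NC and 26.3 and 22.6 in si-circZFR (log2FC -1.10, SE 0.21, limma FDR 0.0592), and -0.86 without NC 2. *EIF5A* was at 250.3 and 482 against 191 and 228 (log2FC -0.73, SE 0.34, limma FDR 0.262). NC 2 stood well above the other 3 libraries, and without it the log2FC was -0.27. Because the rows share long stretches, which copy the reads came from is uncertain: the *EIF5A* to *EIF5AL1* ratio was 5.56 and 7.62 in NC and 7.25 and 10.1 in si-circZFR. The paralog *EIF5A2*, amplified in some cancers, was near the low end at 1.69 and 2.39 against 1.60 and 1.50 scaled RPKM (log2FC -0.25, SE 0.18, limma FDR 0.452, and -0.08 without NC 2).

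*EIF6*, the ribosome anti-association factor, was at 136 and 204 scaled RPKM in NC and 120.4 and 123 in si-circZFR (log2FC -0.45, SE 0.25, limma FDR 0.324). NC 2 was alone at the top, and the log2FC was -0.16 without it and -0.27 after the length correction. *EIF5*, which triggers GTP hydrolysis by eIF2, was at 29.5 and 35.9 against 26.7 and 25.8 (log2FC -0.30, SE 0.17, and -0.17 without NC 2). *EIF5B*, the subunit-joining GTPase, was the only gene of this group with overlapping libraries, at 27.3 and 22.8 against 26.0 and 28.5 (log2FC 0.12, SE 0.17). Over these 6 genes the median log2FC was -0.37, and -0.16 without NC 2. Of them 5 lay apart on the lower side (28.1% of all genes) and none on the higher (27.8%). Over the 6 eEF1 genes the median was -0.64, also with 5 apart on the lower side, and it was -0.38 without NC 2 and -0.37 after the length correction.

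**Figure D2:**
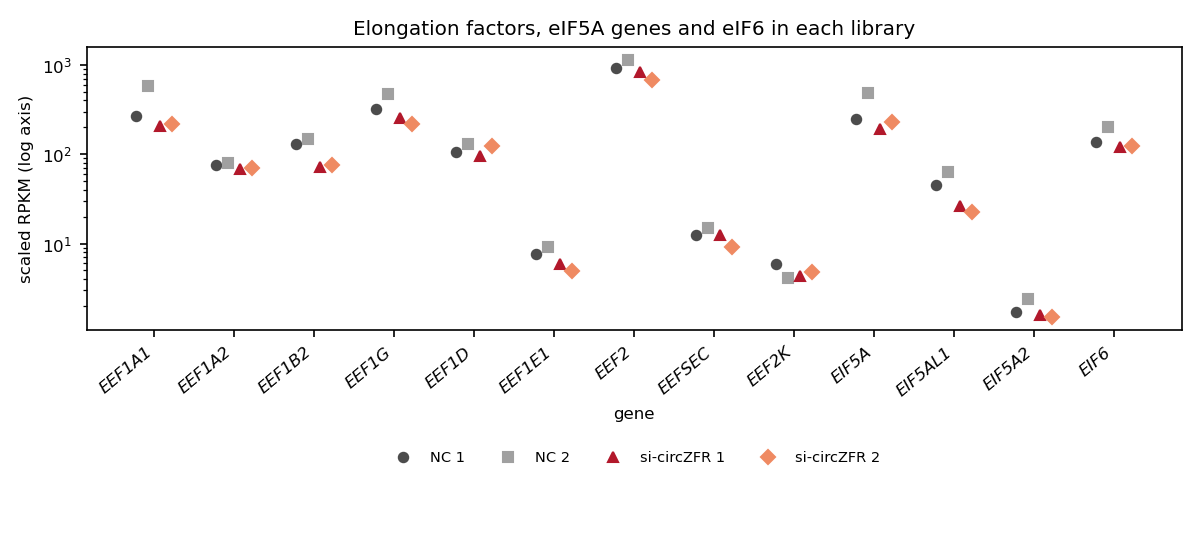
Level of the elongation factors, the eIF5A genes and *EIF6* in each library, in scaled RPKM on a log axis, with NC in grey and si-circZFR in red and orange. For *EEF1B2* the red points sit together at 72.6 and 75.5, under NC at 131 and 150, while for *EEF1A1* and *EIF5A* NC 2 is alone at the top.

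The eIF3 subunit genes were spread from a log2FC of -0.91 to 0.28. Of the 14, 10 lay apart on the lower side (28.1% of all genes) and *EIF3A* on the higher (27.8%). Their median log2FC was -0.42, or -0.25 without NC 2 and -0.24 after the length correction. *EIF3I*, a WD-repeat subunit that binds eIF3b and eIF3g, was at 95.9 and 123 scaled RPKM in NC and 62.9 and 52.5 in si-circZFR (log2FC -0.91, SE 0.21, limma FDR 0.0795). Without NC 2 it was -0.73, and after the length correction -0.78. *EIF3D*, the subunit that can bind the mRNA cap, was at 111 and 134 against 87.0 and 75.6 scaled RPKM (log2FC -0.59, SE 0.20, limma FDR 0.155). In both genes every si-circZFR value was below every NC value, and the gap between the groups was wider than the difference within either.

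*EIF3K*, the subunit gene with the highest level per length, was at 386 and 654 scaled RPKM in NC and 330 and 309 in si-circZFR (log2FC -0.65, SE 0.32, limma FDR 0.279). *EIF3L*, which pairs with eIF3k at the edge of the complex, was at 127 and 218 against 116 and 97.5 (log2FC -0.64, SE 0.29, limma FDR 0.244). *EIF3E* was at 88.6 and 149 against 78.2 and 72.3 (log2FC -0.60, SE 0.27, limma FDR 0.241), and *EIF3H* at 140 and 198 against 120 and 87.7 (log2FC -0.69, SE 0.26, limma FDR 0.184). After the length correction *EIF3K* had -0.34. In these 4 genes NC 2 was well above the other 3 libraries, and without it their log2FC values were between -0.45 and -0.24. The smaller differences were in *EIF3F* (log2FC -0.25), *EIF3M* (-0.22) and *EIF3G* (-0.18), each with the groups apart on the lower side. After the length correction these 3 were -0.08, -0.07 and 0.04, and without NC 2 *EIF3M* had -0.10.

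*EIF3A*, the largest subunit and the base of the scaffold, was at 53.1 and 47.0 scaled RPKM in NC and 54.7 and 67.8 in si-circZFR (log2FC 0.28, SE 0.19, limma FDR 0.412). It had the highest log2FC of the factors, although si-circZFR 1 was only just above NC 1. *EIF3B*, its partner in the core, was flat at 89.2 and 94.2 against 87.0 and 96.2 (log2FC -0.00, SE 0.18), and *EIF3J*, the loosely bound subunit, overlapped (log2FC 0.04, SE 0.24). The 2 copies of the eIF3c gene, *EIF3C* (chr16:28688558-28735727) and *EIF3CL* (chr16:28379579-28403841), share 97.0% of their windows of 100 bases and divided their reads differently in each library: *EIF3C* took 45.1% and 41.0% of their summed scaled RPKM in NC and 75.4% and 34.4% in si-circZFR. Their own log2FC values of -0.09 and -0.82 are uncertain, since counting could split reads between the copies. The sum of both was 173 and 168 scaled RPKM in NC and 128 and 142 in si-circZFR, so eIF3c taken as 1 gene lay apart on the lower side in this unit. With RPKM as deposited the groups overlapped.

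**Figure D3:**
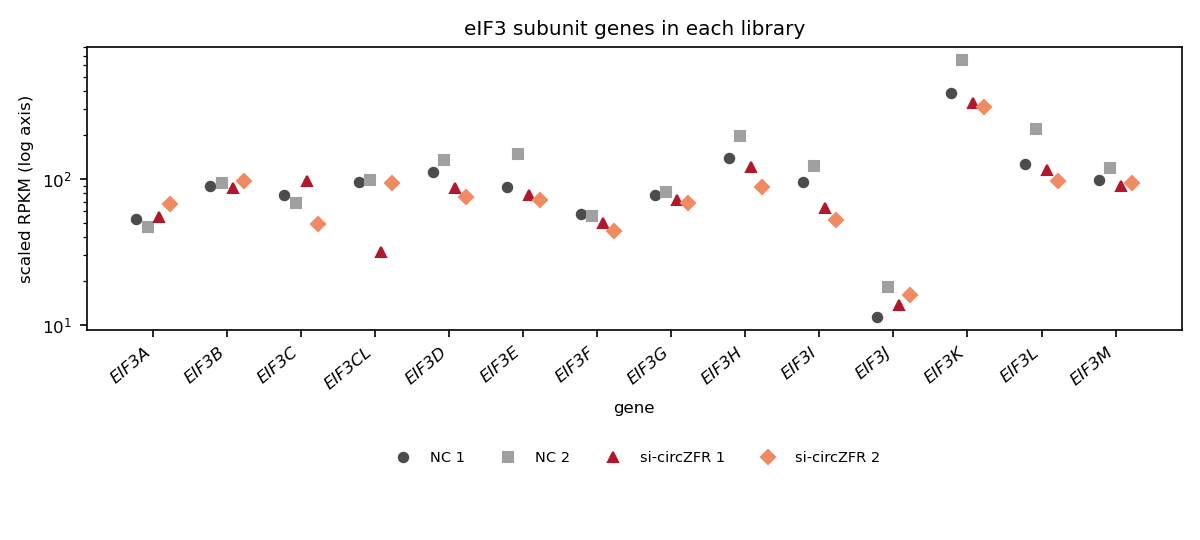
Level of the 14 eIF3 subunit genes in each library, in scaled RPKM on a log axis. *EIF3I* and *EIF3D* have both si-circZFR points below NC, *EIF3A* has both above, *EIF3B* does not separate, and the *EIF3CL* point of si-circZFR 1 lies at 31.6.

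The eIF4 genes, which encode the cap-binding complex and its helicases, were the group nearest to no difference in the main fit. Of 12 tested, 3 lay apart on the lower side (*EIF4A3*, *EIF4B* and *EIF4H*) and none on the higher, against 28.1% and 27.8% of all genes. Their median log2FC was -0.07, which was 0.04 without NC 2 and 0.09 with RPKM as deposited. After the length correction it was -0.12. The eIF1 and eIF1A genes were nearer to no difference in the last 2 settings, with medians of -0.06 and -0.07. *EIF4G2*, a scaffold for cap-independent initiation and the most abundant of them per length, was at 392 and 432 scaled RPKM in NC and 422 and 386 in si-circZFR (log2FC -0.03, SE 0.26). *EIF4G1*, the scaffold of the cap complex, was at 94.3 and 76.0 against 93.6 and 96.7 (log2FC 0.17, SE 0.19), and *EIF4G3* at 14.6 and 11.1 against 14.3 and 15.2 (log2FC 0.20, SE 0.19). Both had their lowest value in NC 2, and without it both log2FC values were 0.01.

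*EIF4A3*, the exon junction complex helicase, had the lowest log2FC of the group, at 51.9 and 57.9 against 42.5 and 41.0 scaled RPKM (log2FC -0.39, SE 0.17, limma FDR 0.234). The 2 helicases of the cap complex overlapped between groups. *EIF4A1* was at 155 and 210 against 171 and 149.6 (log2FC -0.17, SE 0.23) and *EIF4A2* at 36.5 and 31.4 against 34.1 and 45.7 (log2FC 0.21, SE 0.20), or 0.04 and 0.10 without NC 2. *EIF4B*, which stimulates them, was at 67.5 and 75.1 against 55.8 and 61.1 (log2FC -0.28, SE 0.17, limma FDR 0.381). The cap-binding protein gene *EIF4E* had a low RPKM of 1.18 and 1.88 against 1.29 and 1.43, on 67 to 104 reads. By these rows the translational repressor *EIF4E2* was 18.7 to 22.7 times as high per length. The 2 pseudogene rows of *EIF4E* together held more reads than the gene, 117 and 158 in NC and 91 and 109 in si-circZFR. The gene's own share was between 36.4% and 44.2%, and 17.1% of its windows were shared with *EIF4EP2*. Reads can be counted on either row, so the level of *EIF4E* and this ratio are uncertain. The *EIF4E3* row was lower than that of *EIF4E*, at 0.933 and 1.75 against 1.03 and 1.14 scaled RPKM. None of *EIF4E*, *EIF4E2* and *EIF4E3* separated the groups, nor did *EIF4ENIF1*, which carries eIF4E into the nucleus (log2FC 0.15, SE 0.19).

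The genes for eIF1, eIF1A, eIF2 and eIF2B lay in a narrow band. *EIF1*, which guards start codon choice, was at 299.6 and 333 scaled RPKM in NC and 239.6 and 238 in si-circZFR, with groups clearly apart (log2FC -0.40, SE 0.23, limma FDR 0.334, and -0.24 after the length correction). Its paralog *EIF1B* was at 12.5 and 17.6 against 12.9 and 10.5 (log2FC -0.33, SE 0.22), which was -0.10 without NC 2 and -0.07 after the length correction. The ratio of *EIF1* to *EIF1B* was between 18.5 and 23.9 in the 4 libraries. *EIF1AX* was at 9.23 and 10.5 against 8.33 and 8.09 (log2FC -0.24, SE 0.17). *EIF1AD* was at 6.96 and 7.33 against 7.64 and 7.56 (log2FC 0.08, SE 0.17), the other factor with both si-circZFR values above NC. *EIF1AY* had a log2FC of -0.05 (SE 0.31).

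All 10 genes of the eIF2 and eIF2B group had a log2FC below 0 (49.6% of all genes), or 7 with RPKM as deposited (33.8%). The values ran from -0.36 to -0.04 with a median of -0.25, or -0.10 without NC 2. Of the 10, 5 lay apart on the lower side (28.1% of all genes). *EIF2D*, which can deliver tRNA without eIF2, was at 21.9 and 23.5 scaled RPKM in NC and 19.0 and 15.9 in si-circZFR (log2FC -0.36, SE 0.17, limma FDR 0.263). *EIF2S3*, the GTP-binding subunit of eIF2, was at 30.6 and 32.9 against 26.2 and 26.8 (log2FC -0.25, SE 0.16), and *EIF2S2* at 35.6 and 34.7 against 32.6 and 31.2 (log2FC -0.14, SE 0.16). *EIF2S1*, which carries the serine that stress kinases phosphorylate, overlapped between groups at 21.6 and 30.1 against 20.3 and 23.8 (log2FC -0.21, SE 0.21). *EIF2A*, an alternative tRNA carrier, also overlapped (log2FC -0.25, SE 0.21), at -0.04 without NC 2 and -0.47 without NC 1. Of the exchange factor eIF2B, *EIF2B1* (log2FC -0.25) and *EIF2B3* (-0.30, or -0.16 without NC 2) lay apart on the lower side, and *EIF2B2* (-0.24), *EIF2B5* (-0.16) and *EIF2B4* (-0.04) overlapped.

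By class of mRNA, the 9 factors known as TOP mRNAs (*EEF1A1*, *EEF1B2*, *EEF1D*, *EEF1G*, *EEF2*, *EIF3E*, *EIF3F*, *EIF3H* and *EIF4B*) had a median log2FC of -0.60, and 8 of them lay apart on the lower side, the exception being *EEF1D*. The other 47 had a median of -0.21 with 23 apart on the lower side. Of all genes, 28.1% lay apart on the lower side. Without NC 2 these medians were -0.30 and -0.10. Grouped by the start sequence printed above, the 12 factors with the pyrimidine run had a median of -0.32 with 10 apart, and the 35 tested without it -0.17 with 14 apart. The groupings overlap only in part. *EEF1G*, counted with the TOP mRNAs, has a start that begins with A and falls among those without the run. *EEF1D*, *EIF3E* and *EIF3H* had no matched start and fall in neither start class. The difference between these classes was not tested. Single genes departed from this grouping: *EIF3I*, whose start begins with A, had a log2FC of -0.91, while *EIF4A2*, with a run of 6, had 0.21.

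Gene length moved with these values. Over the 56 factors, Spearman's rho between gene length and log2FC was 0.45, and 0.31 over all 14804 genes. The points share their 4 libraries and their scaling, so this is a description. The 12 factors shorter than 1500 bases had a median log2FC of -0.43 with 10 apart on the lower side, against -0.29 and 45.1% for all genes of that length. The 21 from 1500 to 3000 bases had -0.24 with 12 apart, against -0.03 and 30.2%, and the 23 of 3000 bases or more -0.14 with 9 apart, against 0.09 and 19.7%. Length also moved with the difference between the control libraries: for NC 2 minus NC 1, rho was -0.27 over the factors and -0.39 over all genes. After a smooth correction of each library for length the factors' median was -0.21, 28 lay apart on the lower side (28.6% of all genes) and 2 on the higher (26.4%), and none passed FDR under 0.05, with 9 at an unadjusted p under 0.05. In the 3 length classes, shortest first, the corrected medians were -0.18, -0.18 and -0.26, and in the shortest 7 of 12 lay apart on the lower side. The log2FC of 24 factors moved by more than 1.5 times under the correction. What part length has in the differences of single factors was not tested further.

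**Figure D4:**
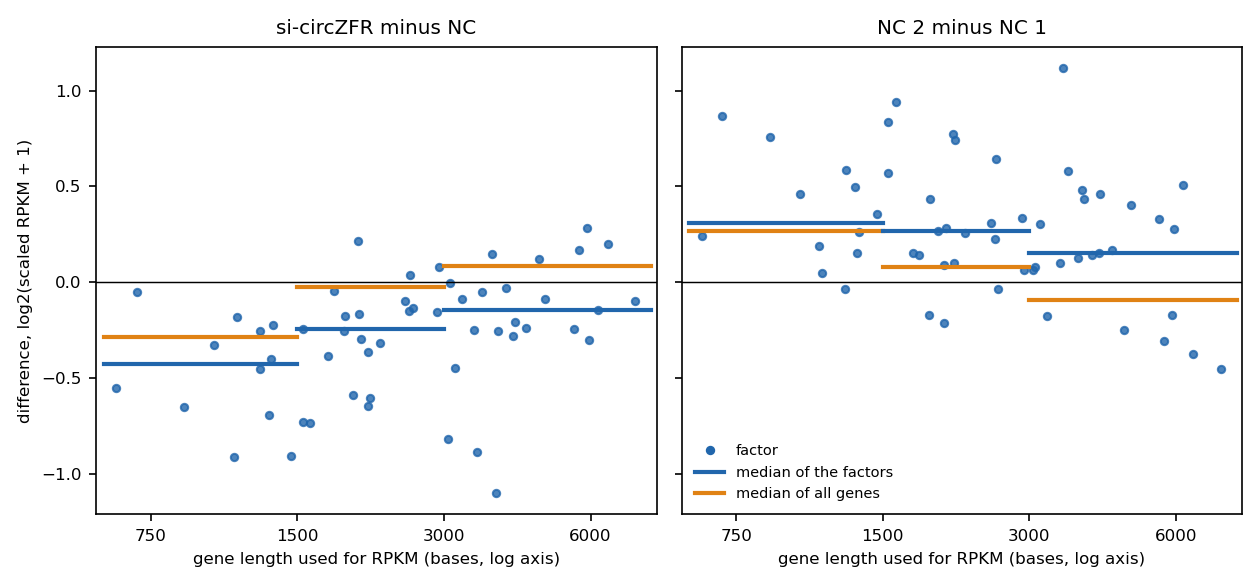
Difference in log2(scaled RPKM + 1) against gene length for the 56 factors, si-circZFR minus NC on the left and NC 2 minus NC 1 on the right; lines are medians in 3 length classes, blue for the factors and orange for all genes. On the left the factors' medians of -0.43, -0.24 and -0.14 lie under those of all genes in each class, and on the right the slope turns the other way.

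Reads were also counted on rows of the factors' pseudogenes. For *EEF1A1* the pseudogene rows together took more reads than the gene: the row of *EEF1A1P5* alone held 766 and 1268 RPKM as deposited in NC and 633 and 623 in si-circZFR, against 263 and 518, and 213 and 243, for *EEF1A1*. Summed, *EEF1A1* and its 43 pseudogene rows held 2735 and 4878 reads per 1000000 (RPM, not scaled between libraries) in NC and 2187 and 2258 in si-circZFR, and the gene's own share was between 33.7% and 37.7% in every library. The share did not separate the groups, so the sum followed the gene. *EEF1B2* showed the same pattern, with 200.5 and 219 RPM for the family in NC and 118 and 134 in si-circZFR, and a share of 67.5% to 71.3% on the gene.

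Across the 43 pseudogene rows tested, 38 had a log2FC below 0, with a median of -0.60, and 29 lay apart on the lower side (67.4%, against 28.1% of all genes). Among all genes shorter than 1500 bases that share was 45.1%. Values of the pseudogene rows without NC 2 or after the length correction are not given here. Of the 18 for *EEF1A1*, 13 lay apart on the lower side. The only one to pass FDR under 0.05 was *EEF1B2P1* (log2FC -0.98, SE 0.16, limma FDR 0.0455), on 21 and 18 reads in the NC libraries and only 6 and 4 after silencing, and it did not pass in limma-voom (FDR 0.0972). There 2 others passed, *EIF4BP3* (FDR 0.0430) and *EEF1B2P3* (FDR 0.0498), both lower. These rows are not independent of the genes, since the same reads can be counted on either.

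*EIF4A1* and *EIF3F* were different. The *EIF4A1* family held 459 and 682 RPM in NC and 645 and 746 in si-circZFR, while the share on *EIF4A1* was 62.2% and 51.5% in NC and 50.9% and 41.9% in si-circZFR. The row of *EIF4A1P10* alone held 79.6 and 153 RPKM as deposited in NC and 150.3 and 241 in si-circZFR, with overlapping groups. For *EIF3F* the family was level, at 151 and 158 against 165 and 142 RPM. The gene's own row also overlapped in this unit, at 70.5 and 62.5 against 64.6 and 62.0 RPM.

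**Figure D5:**
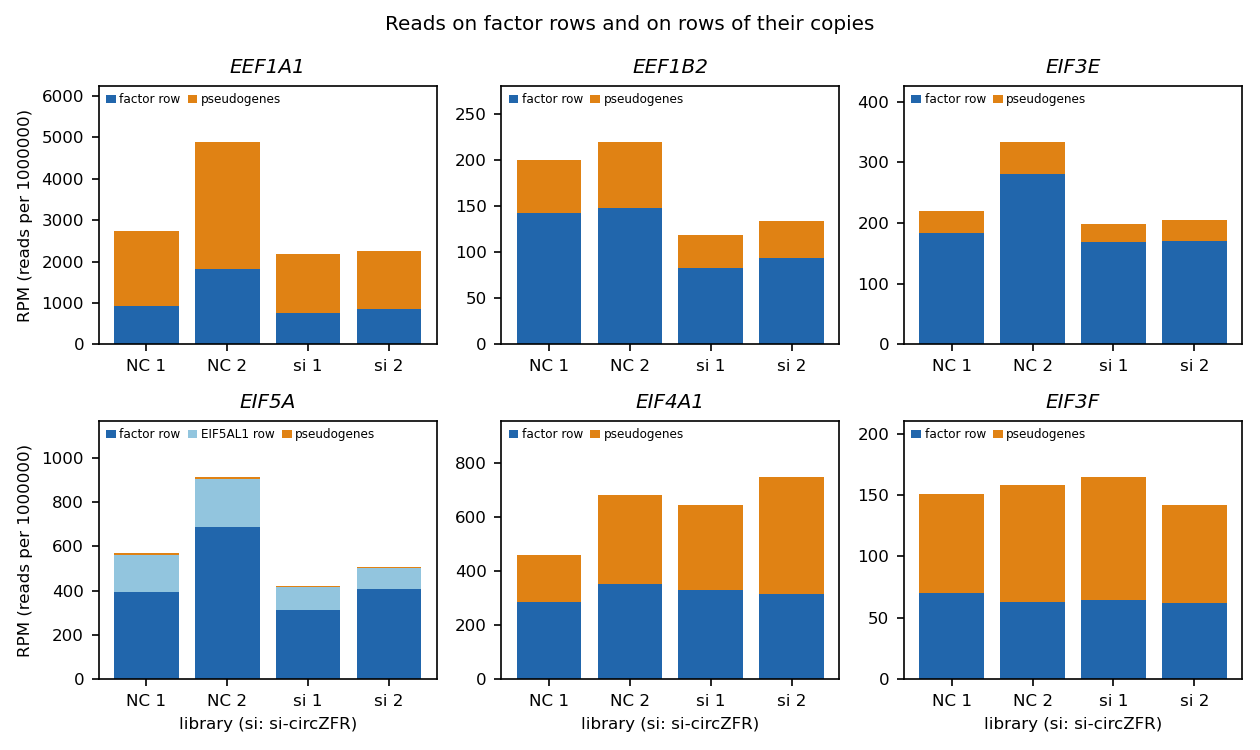
Reads per 1000000 (RPM) on the row of each factor (dark blue), on the *EIF5AL1* row (light blue) and on pseudogene rows (orange), stacked by library for 6 factors. *EEF1A1* has more reads on pseudogenes than on itself, the *EEF1B2* family is lower in both si-circZFR libraries, and the *EIF4A1* family is not.

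Genes that regulate translation but lie outside the factor families were listed for comparison: eIF2 kinases, eIF4E-binding proteins, poly(A)-binding and termination proteins, and mTOR pathway members. Of the 49 tested, none passed FDR under 0.05 in limma, with 7 at an unadjusted p under 0.05, 4 of them lower. By that unadjusted rule 11.9% of all genes were lower and 10.6% higher. Their median log2FC was -0.04, and 14 lay apart on the lower side and 6 on the higher (28.1% and 27.8% of all genes). The smallest p belonged to *MKNK2*, a kinase of eIF4E, at 8.82 and 7.31 scaled RPKM in NC and 17.2 and 17.0 in si-circZFR (log2FC 1.0, SE 0.17, limma FDR 0.0509). It passed in limma-voom (FDR 0.0265), and without NC 2 its log2FC was 0.88. *DENR*, which helps recycle ribosomes, was at 7.01 and 7.46 against 9.65 and 13.5 (log2FC 0.60, SE 0.21, limma FDR 0.158). Lower in si-circZFR were *LARP4*, a poly(A)-linked stabiliser of mRNA, at 10.5 and 10.2 against 6.98 and 7.08 (log2FC -0.50, limma FDR 0.149), *DHPS*, the enzyme that starts the hypusine modification of eIF5A (log2FC -0.53, limma FDR 0.154), and *PAIP2*, a repressor of poly(A)-binding protein (log2FC -0.54, limma FDR 0.174). None of the last 4 passed the test.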

How the data were processed

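The authors prepared libraries with the Ion Total RNA-Seq kit and sequenced them on the Ion Proton, and deposited RPKM values per gene for each library. Their methods name hg38, and the labels' processing notes name GRCh37. The aligner, annotation and counting are not given in the sources used here. RPKM were whole multiples of 1 read for 24282 of the 24289 genes above 0 (99.97%, tolerance 0.001 reads), which gave read counts. These served for depth, the filter, limma-voom, the pseudogene sums and shares, and the read counts given.

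RPKM values were scaled with an unweighted trimmed mean of the log ratio to a reference library, cutting 30% of ratios and 5% of levels at each end. Genes with more than 1 read per 1000000 in at least 2 libraries were tested with limma (trended prior variance) on log2(scaled RPKM + 1). Folds on this scale understate the change of low genes. FDR is Benjamini-Hochberg over all genes tested, two-sided. Counting error limits precision least for abundant factors, and 1 library of a group can decide a value. The length correction was a loess of each library's deviations on log gene length. Same-numbered libraries of the 2 groups deviated with a correlation of 0.085 across genes.

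The members and lists were chosen with earlier results of these data known. The rule for named genes took, in each role group, the most abundant factor and those with the lowest and highest log2FC, the paralog sets, and the 5 control genes with the smallest p. The other factors were named after their values were seen. The control list, TOP list and roles come from general knowledge. Start sequences are from RefSeq (GRCh38.p14), and copies and gene positions from GENCODE on GRCh38. The splicing, overexpression and tissue data of the study were not analysed here. The test was checked on simulated data, where the share of calls that were unchanged genes exceeded the FDR threshold, more so with the RPKM filter. The tools were matplotlib 3.10.9, limma 3.58.1 in R 4.3.3, and scipy 1.17.1, pandas 2.3.3 and numpy 2.4.6 in Python 3.11.15.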

Additional observations from a re-analysis of the deposited data

How the results depend on the processing

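With 2 libraries a group, the number of calls moved widely. All genes passing FDR under 0.05 (201) numbered 8 with the RPKM filter, 0 without a filter, 59 with a pseudocount of 0.1, 46 with no trend in the prior variance, 515 with protein-coding genes only, 474 in limma-voom and 0 to 2047 when 1 library was left out (0 without NC 2, 4 without si-circZFR 2, 59 without si-circZFR 1, 2047 without NC 1). The causes were not tested. Lower calls were 129 of 201, and 110 of 299 with RPKM as deposited. The count of factors (0) was 3 with protein-coding genes only, 3 in limma-voom and 0 to 10 with 1 library left out. With a log2FC beyond 1 it was 1, 1 and 0 to 8. The count of control genes (0) was 1 with RPKM as deposited, protein-coding genes only, limma-voom or the length correction, and 0 to 3 with 1 library left out. In each of the first 4 the gene was *MKNK2*. The median log2FC of the factors was below 0 in all 14 alternatives, from -0.40 without NC 1 to -0.06 with RPKM as deposited.

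Of 854 values of single genes under an alternative, 790 kept their direction and side of the threshold, 22 newly passed and 42 changed sign, none of them past the threshold. With RPKM as deposited, the log2FC turned positive for *EEF1A2* (0.025), *EEF1D* (0.094), *EEF2K* (0.062), *EIF1AY* (0.13), *EIF2B4* (0.14), *EIF2B5* (0.024), *EIF2S2* (0.050), *EIF3B* (0.19), *EIF3C* (0.10), *EIF3G* (0.0081), *EIF4A1* (0.017), *EIF4E* (0.029), *EIF4E2* (0.13), *EIF4G2* (0.16) and *EIF4H* (0.041). It did so after the length correction for *EIF1AY* (0.35), *EIF2B4* (0.026) and *EIF3G* (0.036), and with the RPKM filter for *EIF3B* (0.014). With 1 library left out, the sign changed within these ranges: *EEF1D* -0.27 to 0.10, *EEF2K* -0.33 to 0.13, *EIF1AY* -0.48 to 0.38, *EIF2B2* -0.67 to 0.17, *EIF2B4* -0.19 to 0.12, *EIF2B5* -0.33 to 0.0076, *EIF2S1* -0.44 to 0.020, *EIF3B* -0.065 to 0.081, *EIF3C* -0.56 to 0.41, *EIF3J* -0.29 to 0.35, *EIF4A1* -0.39 to 0.038, *EIF4E* -0.29 to 0.11, *EIF4E2* -0.35 to 0.23, *EIF4E3* -0.40 to 0.11, *EIF4G2* -0.10 to 0.047 and *EIF5B* -0.0091 to 0.24.

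Libraries of the 2 groups share only their replicate numbers, and with the number as a block 344 genes passed, 0 factors and 1 control gene, *MKNK2*. A lone library left in a group is assumed to vary like the other group.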
